A study of Oryza sativa with 12 samples.

Results

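The common symbiosis signaling genes of rice were followed in roots of wild-type (WT) and Os1400 plants grown with normal or low phosphate (Pi). They are the 5 genes SYMRK (Os07g0568100), CERK1 (Os08g0538300), CASTOR (Os03g0843600), CCaMK (Os05g0489900), and CYCLOPS (Os06g0115600). The genes were chosen by their identifiers, for their known role and not for their values, though with earlier results of these data known. They are 5 of the 41620 genes in the expression table. All 5 had a row in both tables of counts and passed the filter on low counts in every comparison.

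Plants that host arbuscular mycorrhizal (AM) fungi, which deliver soil Pi to the root, recognize fungal chitin and lipochitin signals at the cell surface with receptor kinases. The signal is passed to the nucleus, where ion channels of the nuclear envelope take part in repeated calcium oscillations, a calcium-binding kinase decodes these oscillations, and its substrate, a transcription factor, switches on genes for colonization. This route is shared with the root nodule symbiosis of legumes, hence its name, and low Pi is known as the condition under which roots are most open to the fungus.

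Roots of 3-wk-old seedlings of cultivar Nipponbare were sequenced after 2 wk in hydroponic culture. The genotypes were WT and the line Os1400-12SIII (Os1400 in the following), in which CRISPR/Cas9 disrupted Os01g0701400, a MAX1-type cytochrome P450 gene of strigolactone biosynthesis. Each genotype was grown with normal Pi (+Pi) and with low Pi (low-Pi), which gave 4 groups of 3 libraries and 12 libraries in all. The mutant groups come from a single line, and the labels name no fungal inoculation for any group. The study states 3 biological replicates for its expression data, but nothing in the labels says whether these are separate plants or cultures. The p-values therefore measure the spread between these libraries. In whole roots, fewer cells of a type and less RNA per cell cannot be told apart.

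In the authors' tables, whose genome build is not given in the sources used here, all 5 genes are protein-coding. SYMRK spans positions 22826946 to 22831523 of chromosome 7, and CERK1 positions 26909127 to 26913494 of chromosome 8. CASTOR spans positions 35453423 to 35460386 of chromosome 3, CYCLOPS positions 871774 to 875187 of chromosome 6, and CCaMK, the only one of them on the minus strand, positions 24071191 to 24075089 of chromosome 5. The tables name CCaMK for its legume counterpart DMI 3 and CYCLOPS as the interacting protein of DMI 3. They list a kinase domain for SYMRK, CERK1, and CCaMK, with a pair of EF-hands, the calcium-binding fold, in CCaMK, and an ion channel domain in CASTOR.

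The libraries held between 28271749 and 41078078 counts. The 3 WT low-Pi libraries stood apart, with 17711 to 22077 genes that had a count, against 27191 to 30375 in the other 9 libraries. These 3 libraries had 217 to 238 genes with 1 to 9 counts, against 595 to 3413 in the others. They held 17.1% to 24.2% of their counts in the top 100 genes, against 13.9% to 16.7%. They also varied most, as the median coefficient of variation of genes above 1 FPKM was 50.4% in WT low-Pi and between 14.8% and 17.9% in the other groups. No library had a value above 0 for Os01g0701400 itself, and the count tables hold no row of it, so it checks no label. The root markers RCc3, Lsi1, and Lsi2 were between 123 and 4395 FPKM and moved with the groups. Lsi1 was at 1200 to 1569 FPKM at +Pi, at 507 to 4395 FPKM in WT low-Pi, and, below all of these, at 180 to 499.7 FPKM in Os1400 low-Pi. The sum of the 3 was 3484 to 4305 FPKM at +Pi, 2041 to 8057 FPKM in WT low-Pi, and 2195 to 3572 FPKM in Os1400 low-Pi. The summed level of 4 leaf markers was between 3.94 and 29.8 FPKM in WT low-Pi and between 2.37 and 12.2 FPKM elsewhere. Of these, PsaD was at 3.94 to 19.3 FPKM in WT low-Pi, above all other libraries, which were at 0.522 to 2.98 FPKM. Cab2R had a median of 6.80 FPKM in WT low-Pi (0 to 7.81 FPKM) and medians of 1.06 to 2.21 FPKM in the other groups, with overlap. In contrast, rbcS was at 0 in some libraries of every group and Cab1R at 0 in all of WT low-Pi. The part of these markers in the results was not tested.

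SYMRK encodes a leucine-rich repeat receptor kinase that both root symbioses need. FPKM are here fragments scaled by transcript length and by a divisor per library that followed its DESeq2 size factor. The level of SYMRK was 9.24, 9.25, and 8.07 FPKM in WT +Pi and 10.1, 8.54, and 9.63 FPKM in Os1400 +Pi. At low-Pi it was 31.6, 21.5, and 40.4 FPKM in WT and 15.3, 12.01, and 16.8 FPKM in Os1400. All low-Pi libraries therefore lay above all +Pi libraries, and all WT low-Pi libraries above all Os1400 low-Pi libraries. The means were 8.85 ± 0.677, 9.43 ± 0.808, 31.2 ± 9.48, and 14.7 ± 2.45 FPKM (SD, n = 3) in WT +Pi, Os1400 +Pi, WT low-Pi, and Os1400 low-Pi.

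CERK1 is the LysM receptor kinase that rice uses for chitin-triggered immunity, and it is also required for entry of AM fungi. It was listed at 32.7, 39.7, and 29.2 FPKM in WT +Pi and at 36.3, 33.9, and 37.8 FPKM in Os1400 +Pi. At low-Pi the values were 23.6, 30.8, and 54.0 FPKM in WT and 36.8, 32.5, and 41.9 FPKM in Os1400. No group stood apart from the others. The means, 33.8 ± 5.34, 36.0 ± 1.99, 36.1 ± 15.9, and 37.1 ± 4.70 FPKM (SD, n = 3) in the same order of groups, were closer together than the replicates of WT low-Pi.

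CASTOR encodes an ion channel of the nuclear envelope that is needed for calcium oscillations. Its level was 4.22, 8.14, and 5.86 FPKM in WT +Pi and 6.10, 5.89, and 7.80 FPKM in Os1400 +Pi. In WT low-Pi it was 1.15, 3.80, and 3.96 FPKM, which was below every other library, and in Os1400 low-Pi it was 4.32, 4.32, and 5.55 FPKM. CASTOR was thus the only one of the 5 genes with its lowest mean in WT low-Pi. The lowest library rested on 105 counts.

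CCaMK encodes the calcium- and calmodulin-dependent kinase that decodes the nuclear calcium signal. It was at 12.3, 9.51, and 12.4 FPKM in WT +Pi and at 12.99, 13.6, and 13.2 FPKM in Os1400 +Pi. In WT low-Pi it reached 50.6, 21.6, and 99.9 FPKM, the widest relative spread of any group of the 5 genes, with a coefficient of variation of 69.0%. In Os1400 low-Pi it was 13.8, 10.03, and 25.6 FPKM, so that 2 libraries were above all +Pi libraries and 1 was below those of its own genotype. The means were 11.4 ± 1.65, 13.2 ± 0.291, 57.4 ± 39.6, and 16.5 ± 8.10 FPKM (SD, n = 3).

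CYCLOPS encodes the transcription factor that CCaMK phosphorylates. It was the least abundant of the 5 genes at +Pi, with 2.91, 2.04, and 3.29 FPKM in WT and 4.05, 2.99, and 3.43 FPKM in Os1400. At low-Pi the values were 13.9, 11.4, and 21.1 FPKM in WT and 7.94, 6.71, and 10.5 FPKM in Os1400. As for SYMRK, the low-Pi libraries all lay above the +Pi libraries, and at low-Pi the genotypes did not overlap. The means were 2.74 ± 0.642, 3.49 ± 0.534, 15.5 ± 5.05, and 8.37 ± 1.92 FPKM (SD, n = 3).

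**Figure D1:**
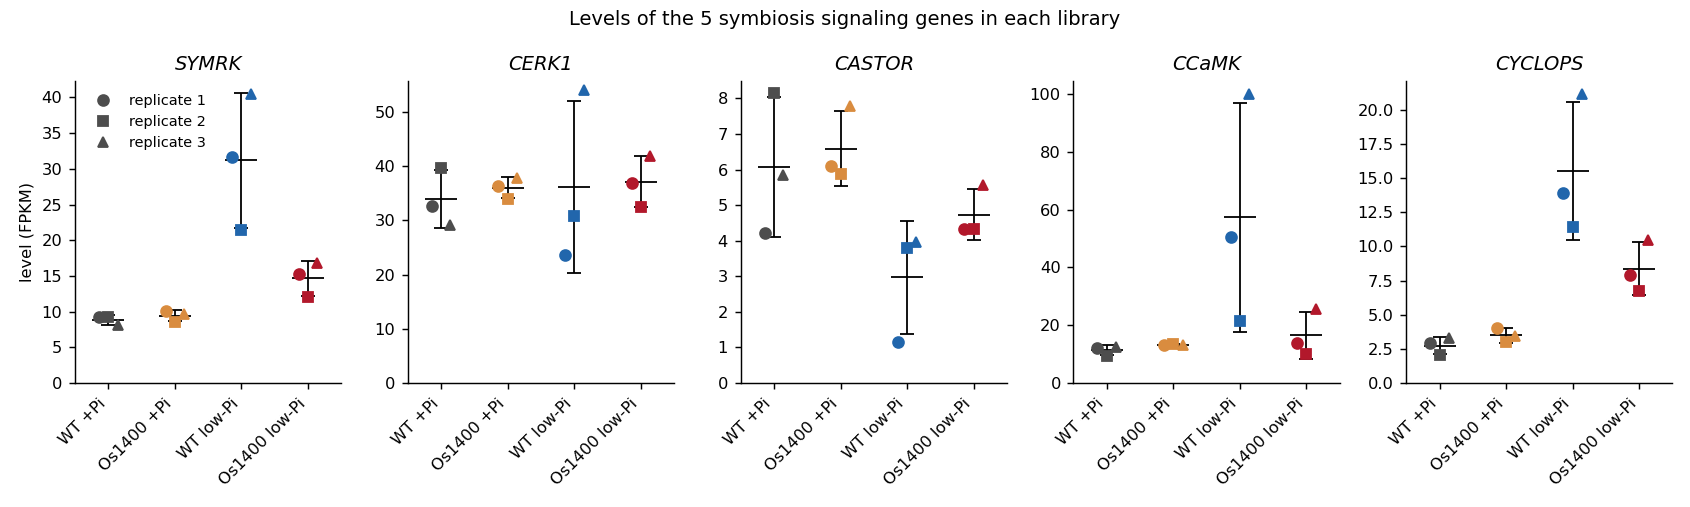
Level of each of the 5 genes in FPKM on the vertical axis, in the 3 libraries of each group (circle, square, and triangle for replicates 1, 2, and 3), with the mean and SD as bars. SYMRK, CCaMK, and CYCLOPS are highest in WT low-Pi, with CCaMK between 21.6 and 99.9 FPKM there, while CERK1 overlaps between all groups and CASTOR is lowest in WT low-Pi.

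The spread within the low-Pi groups had a common direction over the genes. In FPKM, replicate 3 was the highest library for 5 of 5 genes in WT low-Pi and for 5 of 5 in Os1400 low-Pi. The order of libraries within a group depends on how they are scaled, and the FPKM divisor of WT low-Pi replicate 3 was 0.734 times its total count. In the +Pi groups, no library was the highest for more than 3 of the 5 genes. The labels do not say what replicates with the same number share.

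The first question of the design is how the genes responded to low-Pi in WT roots. SYMRK, CCaMK, and CYCLOPS rose, by 3.40-fold, 4.83-fold, and 5.45-fold. CERK1 and CASTOR did not pass the test. Of the 5 genes, the receptor kinase SYMRK, the calcium decoder, and its transcription factor were thus called higher, whereas the LysM receptor kinase and the ion channel were not.

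The log2 fold changes were 1.77 (SE 0.26, adjusted p = 0.00945) for SYMRK, 2.27 (SE 0.53, adjusted p = 0.0244) for CCaMK, and 2.45 (SE 0.42, adjusted p = 0.0138) for CYCLOPS, in the quasi-likelihood test of edgeR with Benjamini-Hochberg adjustment over all 25163 genes tested. Among all genes tested, 8.46% were called higher and 15.2% lower at an FDR of 0.05, and the median log2 fold change was -0.28. The median of the 5 genes was 1.77. CERK1 was at 0.05 (SE 0.33, adjusted p = 0.95) and CASTOR at -1.07 (SE 0.59, adjusted p = 0.284). The normalized counts of the WT groups did not overlap for 4 of the 5 genes, and this was true of 48.7% of all genes tested.

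The call of SYMRK held in each fit that left out 1 library, with log2 fold changes of 1.52 to 1.94. The call of CCaMK was lost without any 1 of the WT +Pi libraries, with adjusted p-values of 0.087, 0.097, and 0.0852 without replicates 1, 2, and 3, and its log2 fold change was 1.58 without WT low-Pi replicate 3. The call of CYCLOPS was lost without WT +Pi replicate 1 (adjusted p = 0.0549) and without WT +Pi replicate 3 (adjusted p = 0.0517), while its log2 fold change stayed between 2.14 and 2.59.

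The second question is how the genes responded to low-Pi in Os1400 roots. SYMRK and CYCLOPS rose here as well, by 1.67-fold and 2.56-fold. CCaMK, CERK1, and CASTOR did not pass the test. The SEs were smaller than in WT, at 0.13 to 0.28 against 0.26 to 0.59.

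The log2 fold change was 0.74 (SE 0.16, adjusted p = 0.00687) for SYMRK and 1.36 (SE 0.23, adjusted p = 0.00195) for CYCLOPS. Over the 27647 genes tested with edgeR, 15.6% were called higher and 14% lower, with a median log2 fold change of -0.003. The median of the 5 genes was 0.41. CCaMK was at 0.41 (SE 0.28, adjusted p = 0.319), CERK1 at 0.14 (SE 0.13, adjusted p = 0.469), and CASTOR at -0.38 (SE 0.19, adjusted p = 0.157). The normalized counts of the Os1400 groups did not overlap for SYMRK and CYCLOPS, as for 46.3% of all genes tested.

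The calls of SYMRK and CYCLOPS held in each fit that left out 1 library. The value of CCaMK rested on single libraries, as it was 0.66 (adjusted p = 0.0434) without Os1400 low-Pi replicate 2 and -0.04 (adjusted p = 0.921) without Os1400 low-Pi replicate 3. These are the libraries with the lowest and the highest level of CCaMK in that group.

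**Figure D2:**
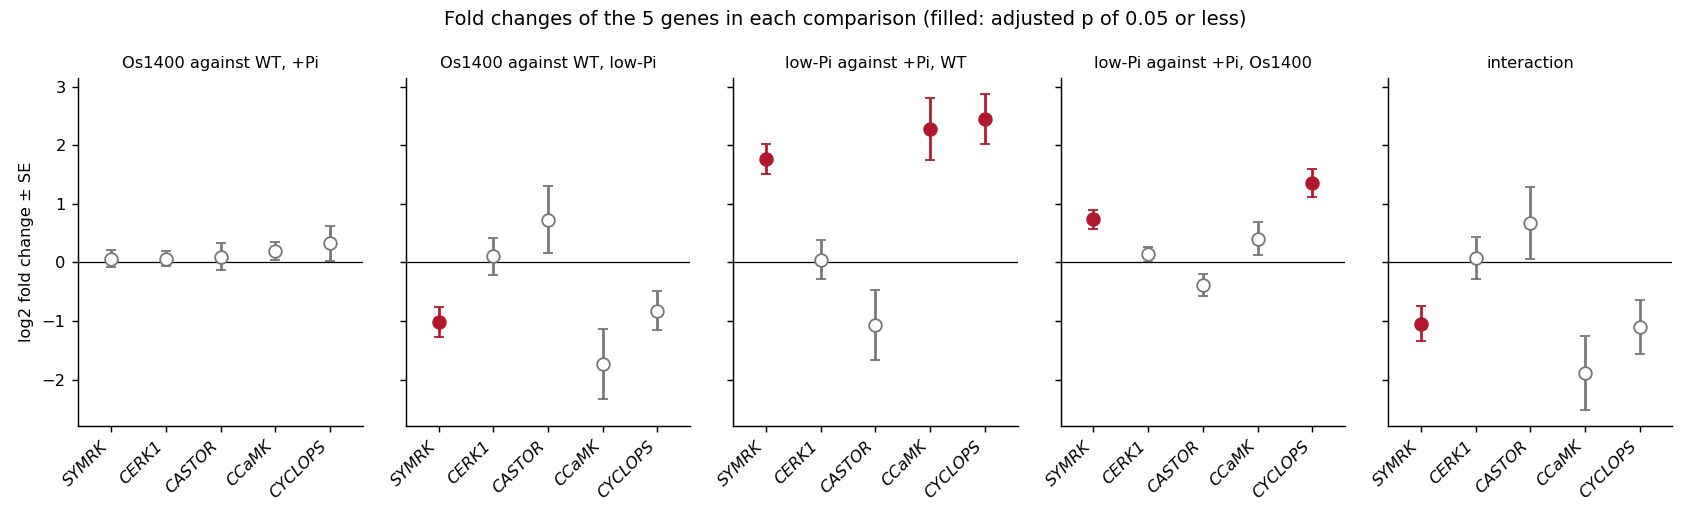
Log2 fold change with its SE from edgeR for the 5 genes in each of the 5 comparisons, where filled red points have an adjusted p of 0.05 or less. All 5 genes are near 0 between the genotypes at +Pi, and SYMRK is the only gene with a filled point in every other comparison.

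Whether the Pi response differed between the genotypes was tested by the interaction of genotype and Pi supply over all 12 libraries. This comparison shares its libraries with the others. SYMRK differed, with a response that was lower in Os1400 by 1.04 on the log2 scale. CCaMK and CYCLOPS had values of the same sign that did not pass the test, and the call of CCaMK in WT but not in Os1400 is therefore no sign of a difference in itself. CERK1 and CASTOR did not pass either.

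The interaction terms were -1.04 (SE 0.30, adjusted p = 0.0402) for SYMRK, -1.88 (SE 0.63, adjusted p = 0.077) for CCaMK, -1.10 (SE 0.46, adjusted p = 0.151) for CYCLOPS, 0.67 (SE 0.61, adjusted p = 0.553) for CASTOR, and 0.08 (SE 0.36, adjusted p = 0.935) for CERK1. Among the 28691 genes tested with edgeR, 10.6% were called above 0 and 2.82% below 0, and the median term was 0.38. With upper-quartile normalization in place of TMM, this median was 0.20, and 68.5% instead of 78.9% of the calls were above 0. A stricter filter, 10 or more counts in each of the libraries, left 15280 genes, whose median was -0.040, and 47.7% of their calls were above 0. Relative to the median of all genes, SYMRK was at -1.42 under TMM and at -1.43 under the upper quartile, CCaMK at -2.26 and -2.25, and CYCLOPS at -1.48 under both. CERK1 was at 0.08 under TMM and at -0.09 under the upper quartile, so that its sign depended on the scaling.

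The call of SYMRK in the interaction was marginal. It held in the 3 fits without a WT low-Pi library and was lost without any other library, with adjusted p-values of 0.0605 to 0.101. CCaMK passed the test without WT low-Pi replicate 2 (-2.26, adjusted p = 0.00758) and without Os1400 low-Pi replicate 3 (-2.31, adjusted p = 0.0477). DESeq2 called SYMRK, CCaMK, and CYCLOPS, with an adjusted p of 0.0221 for CCaMK and 0.0445 for CYCLOPS.

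At low-Pi, the genotypes were compared directly. SYMRK was 2.02-fold lower in Os1400 than in WT. CCaMK and CYCLOPS were 3.32-fold and 1.76-fold lower in the fit, but neither passed the test. CERK1 and CASTOR had log2 fold changes above 0 that did not pass either.

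The log2 fold change of Os1400 against WT was -1.01 (SE 0.26, adjusted p = 0.0444) for SYMRK, -1.73 (SE 0.60, adjusted p = 0.114) for CCaMK, and -0.82 (SE 0.34, adjusted p = 0.185) for CYCLOPS. It was 0.73 (SE 0.58, adjusted p = 0.528) for CASTOR and 0.11 (SE 0.32, adjusted p = 0.9) for CERK1. Of the 25426 genes tested with edgeR, 12.4% were called higher and 4.47% lower in Os1400, with a median of 0.22, while the median of the 5 genes was -0.82. The normalized counts of the genotypes did not overlap for SYMRK and CYCLOPS, which were lower in Os1400, and for CASTOR, which was higher, as for 41% of all genes tested. For CCaMK, the highest Os1400 library (50.4 CPM, counts scaled to library size with TMM) was above the lowest WT library (43.5 CPM).

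This call of SYMRK depended on single libraries and on the setting, as it was also lost with no filter on low counts (adjusted p = 0.0688) and with limma (0.0573 and 0.0567 with pseudocounts of 1 and 0.1). It held without WT low-Pi replicate 2, and the adjusted p was 0.0767 and 0.0599 without WT low-Pi replicates 1 and 3 and 0.144, 0.155, and 0.11 without Os1400 low-Pi replicates 1, 2, and 3. CCaMK passed in 4 of 15 alternatives. It passed without WT low-Pi replicate 2 (-2.09, adjusted p = 0.0362), the library with the lowest CCaMK of its group, and with DESeq2 (-1.77, adjusted p = 0.0248). It also passed in edgeR with 1 fit of all 12 libraries (-1.71, adjusted p = 0.0173) and with the replicate number as a block (-1.58, adjusted p = 0.0408).

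At +Pi, none of the 5 genes was called between the genotypes. The log2 fold changes of Os1400 against WT were 0.07 (SE 0.15) for SYMRK, 0.07 (SE 0.13) for CERK1, 0.09 (SE 0.23) for CASTOR, 0.19 (SE 0.15) for CCaMK, and 0.32 (SE 0.30) for CYCLOPS, with adjusted p-values of 0.773 to 0.952. At an unadjusted p under 0.05, 0 of the 5 genes passed, and DESeq2 and limma called 0 as well. Over the 27777 genes tested with edgeR, 0.54% were called higher and 0.418% lower. CCaMK was the only gene of the 5 whose normalized counts did not overlap between the genotypes, with 24.3 CPM in the highest WT library and 24.5 CPM in the lowest Os1400 library, and 16.9% of all genes tested did not overlap.

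**Figure D3:**
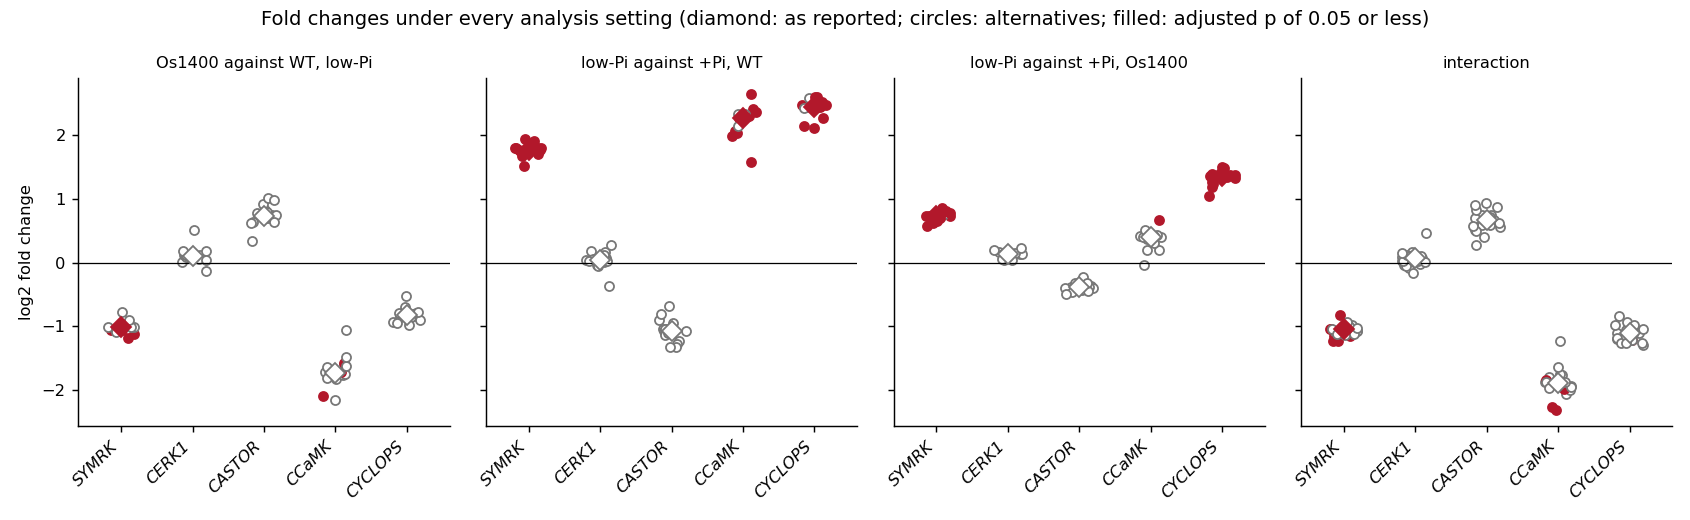
Log2 fold change of the 5 genes in 4 comparisons under every analysis setting, with the reported value as a diamond and each alternative normalization, filter, tool, replicate block, or left-out library as a circle (filled: adjusted p of 0.05 or less). The values of SYMRK in the Pi response of WT are all filled and lie between 1.52 and 1.94, whereas those of SYMRK between the genotypes at low-Pi are filled in part.

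Compared per length, in FPKM, CERK1 was the most abundant of the 5 genes at +Pi in both genotypes and in Os1400 low-Pi. In WT +Pi the order was CERK1, CCaMK, SYMRK, CASTOR, and CYCLOPS, and only the ranges of SYMRK and CASTOR overlapped. The order was the same in Os1400 +Pi, with no overlap between neighbors. In WT low-Pi the order was CCaMK, CERK1, SYMRK, CYCLOPS, and CASTOR, where the ranges of CCaMK and CERK1 and those of CERK1 and SYMRK overlapped. In Os1400 low-Pi the order was CERK1, CCaMK, SYMRK, CYCLOPS, and CASTOR, with an overlap of CCaMK and SYMRK. CYCLOPS was below CASTOR in both +Pi groups and above it in both low-Pi groups, in each case without overlap.

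Ratios within a library do not depend on how libraries are scaled. The ratio of SYMRK to CERK1 in FPKM was 0.264 ± 0.0270 in WT +Pi, 0.262 ± 0.0147 in Os1400 +Pi, 0.930 ± 0.358 in WT low-Pi, and 0.395 ± 0.0230 in Os1400 low-Pi (SD, n = 3). The lowest WT low-Pi ratio, 0.699, was above the highest of Os1400 low-Pi, 0.414, which in turn was the highest outside WT low-Pi. The ratio of CYCLOPS to CERK1 was also highest in WT low-Pi, followed by Os1400 low-Pi. In the order of groups used above it was 0.0843 ± 0.0309, 0.0968 ± 0.0129, 0.451 ± 0.121, and 0.224 ± 0.0229 (SD, n = 3), and the low-Pi groups did not overlap with each other or with the +Pi groups.

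For CCaMK, the ratio to CERK1 was 0.347 ± 0.0965, 0.369 ± 0.0277, 1.57 ± 0.762, and 0.432 ± 0.158 (SD, n = 3) in the same order, and the WT low-Pi libraries, at 0.703 to 2.15, were above all others. The ratio of CCaMK to CYCLOPS in Os1400 was lower at low-Pi than at +Pi in these libraries, a difference that was not tested. CCaMK was 4.23 ± 0.442 times CYCLOPS in WT +Pi, 3.86 ± 0.666 times in Os1400 +Pi, 3.42 ± 1.43 times in WT low-Pi, and 1.89 ± 0.491 times in Os1400 low-Pi (SD, n = 3). In Os1400 the 2 Pi supplies did not overlap, with a highest low-Pi ratio of 2.44 and a lowest +Pi ratio of 3.21, whereas in WT the low-Pi ratios, from 1.89 to 4.73, spanned those of +Pi.

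**Figure D4:**
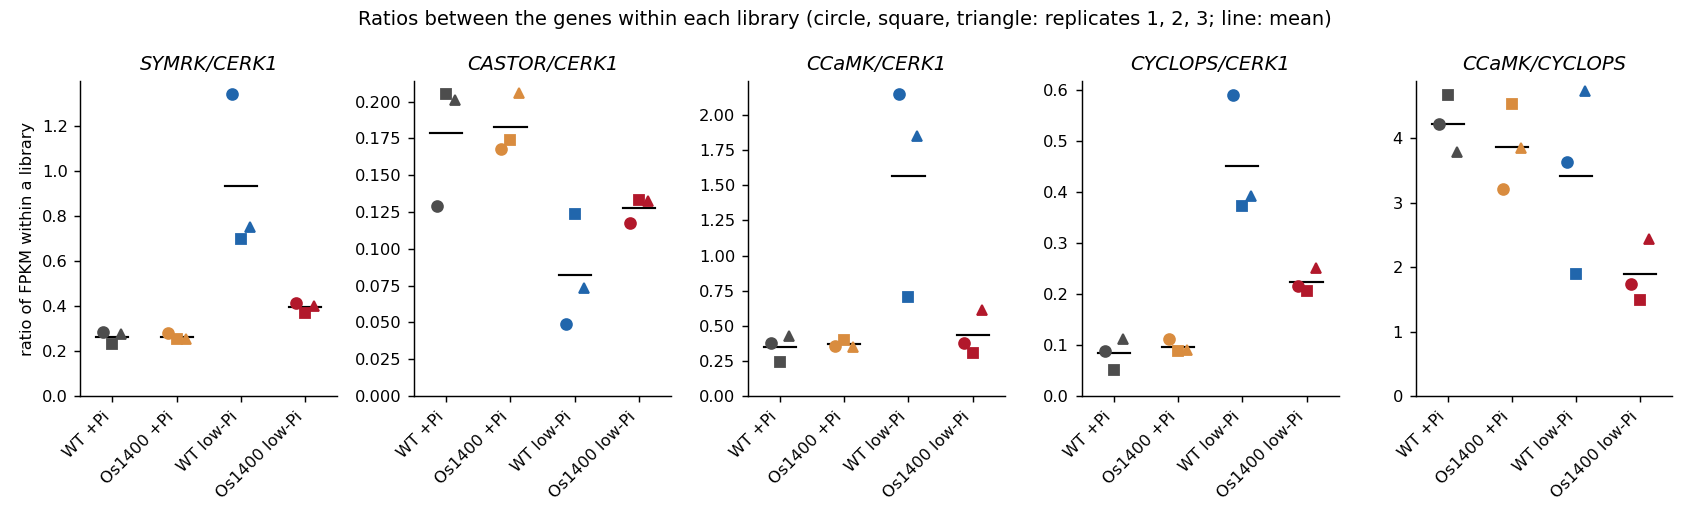
Ratio of FPKM values between pairs of the 5 genes within each library, by group (circle, square, and triangle for replicates 1, 2, and 3, line for the mean). SYMRK, CCaMK, and CYCLOPS relative to CERK1 are highest in WT low-Pi, and CCaMK relative to CYCLOPS is lowest in Os1400 low-Pi, with a mean of 1.89.

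Across the 12 libraries, SYMRK and CYCLOPS were the most alike pair of the 5 genes, with a Pearson r of 0.95 on log2(CPM + 1), and r was 0.93 over the 9 libraries without WT low-Pi. CCaMK and SYMRK had an r of 0.91, which was 0.64 without WT low-Pi. CERK1 and SYMRK had an r of 0.14 over all libraries and of 0.71 without WT low-Pi. These are descriptions over libraries that share 4 groups.

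Among 28691 genes, those without a gene name in the authors' annotation were left out. The genes with a name whose pattern over the 12 libraries was most like each member were then listed. Each r is followed by r over the 9 libraries without WT low-Pi. Those most like SYMRK were Os08g0498100, a caffeoyl-CoA O-methyltransferase of lignin synthesis (r = 0.988 and 0.970), and Os10g0417600, a GDP-mannose epimerase (r = 0.986 and 0.932). CYCLOPS was most like the homeobox gene Os08g0481400 (r = 0.990 and 0.980) and the NAC transcription factor gene Os05g0563000 (r = 0.990 and 0.981). For CCaMK, they were Os01g0257100, a rapid alkalization factor (r = 0.972 and 0.827), and Os02g0187800, an alcohol dehydrogenase of lignin synthesis (r = 0.971 and 0.882). The values of r for CCaMK, CASTOR, and CERK1 were all below 0.9 once WT low-Pi was left out. CASTOR was most like the calcium-dependent protein kinase gene Os07g0161600 (r = 0.963 and 0.832) and Os06g0301000, a homolog of yeast Hrd1 (r = 0.953 and 0.699). CERK1 was most like Os04g0578000, an ACC synthase of ethylene synthesis (r = 0.951 and 0.855), and Os04g0605300, a Ras-group-related LRR protein (r = 0.916 and 0.721).

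The 42 other genes of the pathway were listed by role. Of these, 13 were LysM proteins, 3 were the ion channel POLLUX and the nucleoporins NUP85 and NUP133, 1 was the CCaMK partner CIP73, 5 were transcription regulators, 1 was the F-box protein D3, and 19 were targets that AM fungi induce. In the Pi response of WT, 3 of the 24 tested genes were called higher and 4 lower, beside 8.46% and 15.2% of all genes, with a median log2 fold change of -0.29 against -0.28. In that of Os1400, 7 of 26 were called higher and 3 lower, beside 15.6% and 14% of all genes, with a median of -0.25. Between the genotypes, 0 of 25 were called at +Pi, where 5 had an unadjusted p under 0.05 and DESeq2 and limma called 0. At low-Pi, 1 of 21 was called lower in Os1400, a share near the 4.47% of all genes. In the interaction, edgeR called 0 of 26, with 4 at an unadjusted p under 0.05, while DESeq2 called 3 and limma 1.

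The gene called between the genotypes was LYP4 (Os09g0452200), a LysM protein that binds chitin and peptidoglycan fragments at the rice cell surface. It was listed at 142, 170, and 101 FPKM in WT low-Pi and at 54.7, 59.0, and 39.8 FPKM in Os1400 low-Pi. At +Pi it was 14.4, 23.1, and 11.2 FPKM in WT and 10.3, 11.2, and 11.7 FPKM in Os1400, so that the Pi supplies did not overlap in either genotype and the genotypes did not overlap at low-Pi. In edgeR, LYP4 rose by 3.04 on the log2 scale in WT (SE 0.36, adjusted p = 0.00549) and by 2.31 in Os1400 (SE 0.18, adjusted p = 1.81e-05), and it was lower in Os1400 at low-Pi by -1.36 (SE 0.28, adjusted p = 0.0207). This last call was lost without Os1400 low-Pi replicates 1, 2, or 3 (adjusted p = 0.0861, 0.0586, and 0.0812), and the interaction did not pass the test (-0.75, adjusted p = 0.27).

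Other LysM genes moved with Pi. LYP5 rose in WT by 1.36 on the log2 scale (SE 0.32, adjusted p = 0.0239 in edgeR) and in Os1400 by 1.35 (SE 0.28, adjusted p = 0.00494), a call that was lost in WT without any 1 of the WT +Pi libraries (adjusted p = 0.0709 to 0.102). LYP3 rose in Os1400 by 1.66 (SE 0.24, adjusted p = 0.000768). LYK4 rose in Os1400 by 0.65 (SE 0.19, adjusted p = 0.0245), which was lost without Os1400 +Pi replicate 1 (0.0778) or 3 (0.0571) or Os1400 low-Pi replicate 1 (0.086). Os03g0699600, which the tables list with an F-box and a LysM domain, fell in Os1400 by 1.31 (SE 0.22, adjusted p = 0.00163). CEBiP, the chitin elicitor binding protein, was at -0.38 (adjusted p = 0.422) in WT and -0.27 (adjusted p = 0.173) in Os1400 and was not called.

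LYK3 was at 39 to 53 counts in WT +Pi and at 71 to 146 in Os1400 +Pi. It had 0 counts in all WT low-Pi libraries, and in Os1400 low-Pi it had 0, 0, and 10. Set against 3 counts per library, LYK3 was 12.7-fold lower in WT low-Pi than in WT +Pi. This value covers counting error only and is no lower bound. Within WT low-Pi, CIP73 ranged from 0 to 39 counts and Os03g0699600 from 0 to 279 counts. The edgeR call of LYK3 in WT (adjusted p = 0.0145) was lost without WT +Pi replicate 1 (0.0529) or replicate 3 (0.0505). That in Os1400 (adjusted p = 0.0135) was lost without Os1400 +Pi replicate 1 (0.054). In the libraries of WT low-Pi, which had fewer genes with a count, 3 of the 13 LysM genes were listed at 0 FPKM in every library.

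Among the channel and nucleoporin genes, CASTOR included, none was called. POLLUX, the channel related to CASTOR, was at -0.59 (adjusted p = 0.585) in WT and at -0.25 (adjusted p = 0.355) in Os1400 for low-Pi against +Pi. NUP85 and NUP133, nucleoporins that legumes need for calcium oscillations, did not pass in either genotype. CIP73, which binds CCaMK in legumes, had 0, 39, and 0 counts in WT low-Pi, against 435 to 530 in Os1400 low-Pi, 350 to 547 in WT +Pi, and 712 to 787 in Os1400 +Pi. CIP73 did not pass the edgeR test between the genotypes at low-Pi (adjusted p = 0.183), whereas it passed in DESeq2 (0.0404) and in limma on log2(FPKM + 1) (0.0086). It also passed without WT low-Pi replicate 2 (0.0221), the library with 39 counts.

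Among the transcription regulators, the GRAS factor NSP1, which together with NSP2 also acts in strigolactone synthesis, was at 0.315 to 0.511 FPKM in WT +Pi and at 1.91 to 9.42 FPKM in WT low-Pi, and at 0.185 to 0.801 and 3.86 to 8.44 FPKM in Os1400. NSP1 rose in Os1400 by 3.70 (SE 0.52, adjusted p = 0.000608 in edgeR), and its call in WT (adjusted p = 0.0418) was lost without any 1 of the WT +Pi libraries (0.164 to 0.19). NSP2 was at 0 counts in 5 of the 6 +Pi libraries, at 0, 103, and 345 counts in WT low-Pi, and at 142 to 295 counts in Os1400 low-Pi. It was not tested in WT after the filter on low counts and was called higher in Os1400 (adjusted p = 0.0275), which no longer held when replicate 1 (0.0922) or 3 (0.0642) of that group was left out. SLR1, the DELLA repressor of gibberellin signaling whose legume counterpart works with CYCLOPS, rose in Os1400 by 0.59 (SE 0.12, adjusted p = 0.00377). PHR2, the regulator of Pi starvation genes, did not pass in either genotype, with -0.75 (adjusted p = 0.258) in WT and -0.31 (adjusted p = 0.0777) in Os1400, where it passed without Os1400 low-Pi replicate 2 (0.0423).

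D3, the F-box protein of strigolactone and karrikin signaling, fell in both genotypes, by 1.38 (SE 0.23, adjusted p = 0.0129) in WT and by 1.78 (SE 0.12, adjusted p = 1.09e-05) in Os1400. The WT call was lost without WT +Pi replicate 1 (adjusted p = 0.0516). Its level was 13.3 to 19.4 FPKM in WT +Pi, 19.6 to 20.0 FPKM in Os1400 +Pi, and 4.94 to 6.67 FPKM in all low-Pi libraries. The sign of D3 was thus opposite to that of SYMRK and CYCLOPS.

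Most genes that AM fungi induce were at or near 0. Of 19, 9 were listed at 0 FPKM in all 12 libraries and 14 stayed below 1 FPKM in each. The exceptions included STR2, a subunit of a transporter of the arbuscule membrane, which was at 3.96, 0.647, and 1.87 FPKM in WT low-Pi and at 0.233 to 0.822 FPKM in the other groups. The ammonium transporter gene AMT3;1 was at 1.66 to 2.39 FPKM at +Pi, at 0.269 to 1.77 FPKM in WT low-Pi, and at 1.47 to 1.66 FPKM in Os1400 low-Pi. Neither STR2 nor AMT3;1 passed the edgeR test in any comparison. PT11, the Pi transporter of arbuscule-containing cells, had 3 counts in 1 Os1400 +Pi library and was listed at 0 FPKM in every other library. AM11 and AM15 were called lower in WT low-Pi, where both were at 0 counts in all 3 libraries. Set against 3 counts per library, they were 5.38-fold and 6.39-fold below WT +Pi, values that cover counting error only. Without WT low-Pi replicate 1, both calls were lost (adjusted p = 0.0535 and 0.0517).

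**Figure D5:**
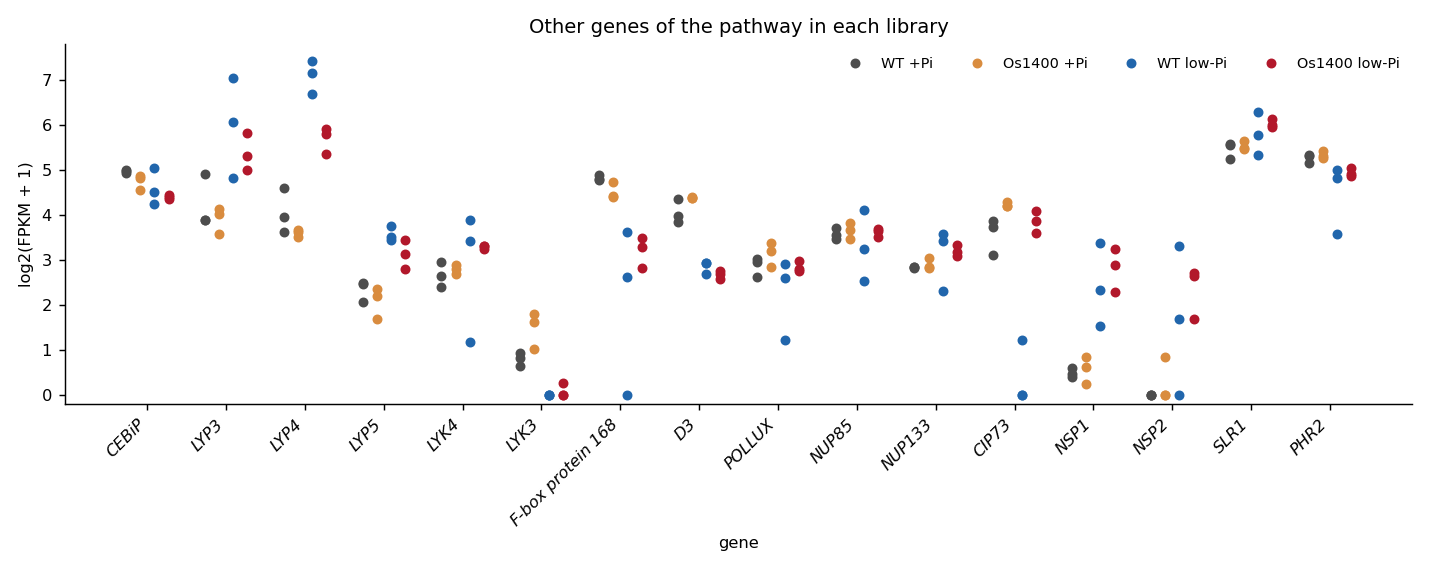
Level of 16 other pathway genes as log2(FPKM + 1) in each library, colored by group. LYP4 is highest in WT low-Pi, at 101 to 170 FPKM, NSP1 is higher at low-Pi, D3 is lower at low-Pi in both genotypes, and CIP73 is at 0 in 2 WT low-Pi libraries.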

How the data were processed

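RNA from 12 root libraries was measured. Per the labels and the study's methods, the authors aligned reads with HISAT2 2.0.5, counted them with featureCounts 1.5.0-p3, and deposited a table of raw counts for each Pi supply and a table of FPKM, beside DESeq2 comparisons of their own (fold changes and p-values), which were not used, as were 28 further columns of per-library values and means. In the deposited FPKM, the divisor of each library was 0.734 to 1.11 times its total count and followed its DESeq2 size factor. Whether counting used strand is not given, and reads shared between paralogs, such as LysM genes or CASTOR and POLLUX, may be split.

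Counts were tested with edgeR 4.0.16 in R 4.3.3 (TMM, filterByExpr with minimums of 10 and 15 counts, quasi-likelihood test, Benjamini-Hochberg over all genes tested, FDR of 0.05). Genotypes were compared on the 6 libraries of 1 Pi supply. For Pi supplies and the interaction, the 30742 genes present in both tables of counts were used. SE was derived from the fold change and the test statistic. The tests were checked beforehand on simulated counts with the spread of the +Pi libraries. That check does not cover the wider spread of the WT low-Pi libraries. Alternatives were DESeq2 1.42.0, limma 3.58.1 on log2(FPKM + 1) and log2(FPKM + 0.1), upper-quartile and size-factor normalization, no filter and at least 10 counts in every library, 1 fit of all 12 libraries, a replicate block, and fits without each library. At the depth of these libraries, 3 counts correspond to 0.073 to 0.106 CPM, a limit that covers counting error only, since the libraries hold no molecular identifiers. The chi-square per gene between replicates of a group was 18.2 to 312, so no replicate was a copy of another in its group.

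Genes and lists were chosen with earlier results of these data known. The named genes are the 5 members, the 2 genes most like each, and pathway genes by role. Among called pathway genes, those with the lowest p-values were picked first, ranked separately for rises and falls and not by size of change. The other pathway genes were named after their values were seen. LysM genes were matched in the description or the name column, and D14L and SMAX1 were left out since their identifiers did not match a name. Promoter and protein sequences were not used here.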

Additional observations from a re-analysis of the deposited data

Results flagged for a closer look

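SYMRK was singled out because its genotype effect differed between the Pi supplies in a test of the difference itself. In log2 units, the interaction of genotype and Pi supply was -1.04 in edgeR (SE 0.30, 12 libraries, adjusted p = 0.0402), with the genotypes at 0.07 from each other at +Pi and at -1.01 at low-Pi. All 3 Os1400 low-Pi libraries were below all 3 WT low-Pi libraries. The call passed in 9 of 20 alternatives, with adjusted p-values of 0.00514 to 0.101, and the value stayed between -1.23 and -0.83. The WT low-Pi libraries, in which fewer genes had a count, enter this comparison, and their part in it was not tested.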

How the results depend on the processing

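The Pi response of SYMRK in WT and that of CYCLOPS in Os1400 passed in 15 of 15 alternatives, and that of SYMRK in Os1400 in 14 of 15, with an adjusted p of 0.0518 in a fit of all 12 libraries. CCaMK and CYCLOPS passed in WT in 12 of 15, SYMRK between the genotypes at low-Pi in 6 of 15 and in the interaction in 9 of 20. The cause of each change below was not tested, except that DESeq2, filters, and left-out libraries change how many genes or samples are tested.

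Reported counts over all genes were 266 at +Pi, 4301 at low-Pi, 5962 and 8191 for the Pi response in WT and Os1400, and 3838 for the interaction. At +Pi, DESeq2 gave 648, no filter 469, and the 12-library fit 33. At low-Pi, DESeq2 gave 6914, no filter 1274, 10 counts in every library 2553, the 12-library fit 7818, and the replicate block 1045. The 12-library fit gave 9776 in WT and 2559 in Os1400, the block 1943 in WT, and 10 counts in every library 2252 in the interaction. Without 1 library at a time, counts were 133 to 254, 0 to 7168, 1830 to 9043, 5830 to 8039, and 2619 to 6658, and the 0 arose without Os1400 low-Pi replicate 1 or 3, where 5515 and 5622 genes had an unadjusted p under 0.05. Of the calls, 73.6% were higher at low-Pi, against 62.6% in DESeq2, 56.3% with no filter, 42% with 10 counts in every library, and 38.2% with the block. In WT 35.7% were higher, against 55.5% with 10 counts in every library and 55.1% with the block. The median over all genes moved with upper-quartile scaling from 0.22 to 0.11 at low-Pi, from -0.28 to -0.13 for WT, and from 0.38 to 0.20 for the interaction. With 10 counts in every library, which leaves fewer genes, it turned sign to -0.036, 0.035, and -0.040, and with the block it was 0.65, -0.72, and 0.55.

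Of the 5 genes, 1 was called between the genotypes at low-Pi, against 2 in DESeq2 and in the 12-library fit and 0 with no filter and with limma at either pseudocount. In the interaction 1 was called, against 3 in DESeq2, 2 with 10 counts in every library and with the block, and 0 with limma at either pseudocount. For Os1400, 2 were called and 1 in the 12-library fit. Left-out libraries gave 0 to 2 at low-Pi, 1 to 3 in WT, 2 to 3 in Os1400, and 0 to 2 in the interaction. Of the pathway genes, 1 was called at low-Pi, against 4 in DESeq2, 0 with no filter, 3 with 10 counts in every library, 5 in the 12-library fit, and 2 with limma at either pseudocount. In WT 7 were called, against 4 with no filter, 12 in the 12-library fit, and 3 with the block, and in Os1400 10, against 4 in the 12-library fit. In the interaction 0 were called, against 3 in DESeq2 and 1 each with the upper quartile, size factors, 10 counts in every library, and limma. Left-out libraries gave 0 to 3, 3 to 10, 8 to 11, and 0 to 3 pathway genes at low-Pi, in WT, in Os1400, and in the interaction.

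Signs turned only in values that were not called. CASTOR at +Pi was -0.12 without WT +Pi replicate 1 and -0.05 without Os1400 +Pi replicate 3 (0.37 at most). CERK1 was -0.033 to 0.20 at +Pi, -0.13 to 0.51 at low-Pi, and -0.37 to 0.28 in WT without 1 library, and -0.035 in WT with the block. CERK1 in the interaction was -0.034 in DESeq2, -0.089 with the upper quartile, -0.034 with size factors, -0.015 with 10 counts in every library, and -0.16 to 0.46 without 1 library. CCaMK in Os1400 was -0.035 to 0.66 without 1 library.

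The replicate number as a block changed calls between the genotypes at low-Pi (CCaMK 0.0408, SYMRK 0.0673), in WT (CYCLOPS 0.0569, LYP5 0.145, NSP1 0.267, LYK3 0.444, AM11 0.563, AM15 0.539), in Os1400 (LYK4 0.0506), and in the interaction (CCaMK 0.0429). It changed no other call of a gene named here whose test was repeated. Libraries with the same number correlated between 0.000762 and 0.232 at low-Pi, not every library correlated best with its own number, and the numbers were not taken as pairs. Counts were low in some groups for most AM-induced genes, CIP73, NSP2, and LYK3, and their fold changes are imprecise.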
